A study of Salmo salar with 13 samples.

Results

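FKBP5, KLF9 and TSC22D3 are textbook targets of the glucocorticoid receptor. Cortisol, the main glucocorticoid of salmon, enters cells and binds this receptor, which is held ready in the cytoplasm by HSP90 and its co-chaperones, and the bound receptor then acts in the nucleus on genes such as these. FKBP5 is a co-chaperone that lowers the affinity of the receptor for its hormone, KLF9 is a Krüppel-like transcription factor, and TSC22D3, also called GILZ, is a leucine zipper protein that damps inflammatory transcription, roles known mainly from mammals. Cortisol also takes part in the preparation of salmon for seawater. The members described here were chosen by transcript identifier and are 6 transcripts of 4 genes, of 146780 transcripts listed for the saccus vasculosus (SV), a vascular sac of the ventral hypothalamus lined by coronet cells. All 6 of 6 passed the filter on low values, at which 46383 transcripts were tested.

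The 13 libraries came from juvenile Atlantic salmon of the commercial Aquagen strain, of undetermined sex, in 4 groups. SPLL SW (n = 4) were fish given 8 weeks of short photoperiod and 8 weeks of constant light, which stimulates smoltification, before 24 h in seawater, and SPLL FW (n = 2) were fish of that photoperiod taken in freshwater. SP-hold SW (n = 3) were fish kept for 16 weeks under short photoperiod and then moved to full strength seawater for 24 h, and SP-hold FW (n = 4) were fish of the same photoperiod taken in freshwater. The seawater tank was lit constantly, so that salt, transfer and the change of light cannot be told apart in SP-hold fish. In SPLL fish, already under constant light, salt and transfer cannot be told apart. Comparisons of SPLL with SP-hold fish in seawater, and of their seawater responses, thus mix photoperiod history with the change of light.

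Assigned reads ranged from 15346418 to 26502552 per library. SPLL SW replicate 3 was unlike the rest. It detected 54196 transcripts, where the remaining 12 libraries detected 62912 to 70193, and 7.11% of its TPM (Salmon's level per length, scaled to a common total in each library) came from 7 erythrocyte transcripts, against 1.47% to 5.42% elsewhere. The 5 transcripts of ependymin (epd) and parvalbumin (prvt) held between 6.12% and 11.5% of TPM in every library. Parvalbumin is a known SV marker, and its transcripts had at least 3160 and 7378 TPM in every library. The study put forward ependymin as a major SV product from these same libraries. The level of ependymin is thus no independent check of the tissue label. TPM and TMM-scaled CPM (reads scaled to library size, the basis of all fold changes from edgeR below) differed in scale. Over all transcripts tested, the log2 ratio of seawater to freshwater was higher in TPM than in CPM by a median of 0.28 in SPLL and 0.32 in SP-hold fish, and that of SPLL to SP-hold differed by -0.28 in seawater and by -0.24 in freshwater. Names of transcripts come from the supplementary tables of the study, which name 1275, so that most genes could not be looked up.

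The chromosome 12 gene, here Fkbp5 by its mouse match (ENSSSAG00000079897), lies at 57656136 to 57708497 of the Ssal_v3.1 assembly and gave ENSSSAT00000150909 (4334 bases), ENSSSAT00000150897 (3809 bases) and ENSSSAT00000242092 (11322 bases). In the RefSeq annotation of the same assembly this span overlaps 2 genes, LOC106565345 and LOC106565346. The other fkbp5 gene, ENSSSAG00000099623 on chromosome 22 (38007370 to 38014874), gave ENSSSAT00000241265 (1291 bases) and covers only part of RefSeq fkbp5 (37976749 to 38022385). klf9 (ENSSSAG00000093699) lies on chromosome 24 at 28216774 to 28234296, a span that also overlaps 2 RefSeq genes, and gave ENSSSAT00000233091 (6154 bases). TSC22D3 (ENSSSAG00000058239), named by its zebrafish match, lies on chromosome 9 at 94782756 to 94793319 and gave ENSSSAT00000095331 (2910 bases). By mean TPM over the 13 libraries the 6 transcripts spanned a wide range of abundance, with TSC22D3 at 42.7 TPM (rank 1901 of 146780), the chromosome 22 fkbp5 transcript at 12.2 TPM (rank 6560), ENSSSAT00000150897 at 3.98 TPM, ENSSSAT00000150909 at 3.65 TPM, klf9 at 1.77 TPM and ENSSSAT00000242092 at 0.378 TPM (rank 54096).

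The comparison of seawater with freshwater within each photoperiod group asked how the SV responds to seawater transfer in fish that had and had not received the smoltification stimulus. ENSSSAT00000150909 had 3.32, 4.40, 1.95 and 3.37 TPM in SPLL SW, against 1.58 and 1.38 TPM in SPLL FW. It had 18.2, 4.34 and 7.93 TPM in SP-hold SW, against 0.352, 0.177, 0.118 and 0.303 TPM in SP-hold FW. No library of either seawater group overlapped with its freshwater group, and SPLL FW lay between SP-hold FW and the seawater groups. In the counts this was a log2 fold change of 4.90 (SE 0.44, FDR 0.00218 in edgeR) in SP-hold fish, and the transcript rose 29.9-fold there. In SPLL fish the log2 fold change was 0.90 (SE 0.46, FDR 0.555), which did not pass.

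ENSSSAT00000150897 had 3.12, 7.80, 2.01 and 6.00 TPM in SPLL SW, against 1.14 and 1.32 TPM in SPLL FW. It had 10.9, 6.14 and 11.1 TPM in SP-hold SW, against 0.435, 0.282, 0.535 and 0.854 TPM in SP-hold FW. The seawater libraries were again all above the freshwater libraries of their photoperiod group, with SPLL SW replicate 3 closest to them. The transcript rose 12.8-fold in SP-hold fish (log2 3.68, SE 0.46, FDR 0.0159 in edgeR), and its log2 fold change in SPLL fish was 1.62 (SE 0.53, FDR 0.272).

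ENSSSAT00000242092, the longest transcript of the locus, was also the rarest. It had 0.565, 0.624, 0.201 and 0.624 TPM in SPLL SW, against 0.0654 and 0.110 TPM in SPLL FW. It had 0.954, 0.504 and 0.926 TPM in SP-hold SW, against 0.0677, 0.125, 0.0617 and 0.0853 TPM in SP-hold FW. Here the freshwater groups overlapped, and the fold changes were nearer to each other than for the other transcripts of the gene. The transcript rose 6.98-fold in SP-hold fish (log2 2.80, SE 0.38, FDR 0.0286 in edgeR), and in SPLL fish the log2 fold change was 2.19 (SE 0.47, FDR 0.101).

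The chromosome 22 fkbp5 was the most abundant fkbp5 transcript by mean TPM in every group. Its mean CPM, which takes no account of length, was the highest of them in SP-hold FW only, and it is the shortest fkbp5 transcript. It had 12.0, 20.4, 4.03 and 18.6 TPM in SPLL SW, against 4.80 and 3.23 TPM in SPLL FW. It had 39.1, 17.4 and 28.6 TPM in SP-hold SW, against 2.71, 2.42, 2.63 and 2.72 TPM in SP-hold FW. SP-hold FW libraries were within a narrow band, while SPLL SW replicate 3 fell inside the SPLL FW range in TPM, though not in CPM (4.84 against 4.36 and 3.27). ENSSSAT00000241265 rose 8.45-fold in SP-hold fish (log2 3.08, SE 0.32, FDR 0.00571 in edgeR), and its log2 fold change in SPLL fish was 1.38 (SE 0.37, FDR 0.177).

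klf9 had a smaller fold change. It had 1.99, 2.96, 2.20 and 2.66 TPM in SPLL SW, against 0.846 and 1.09 TPM in SPLL FW. It had 3.90, 1.59 and 2.91 TPM in SP-hold SW, against 0.698, 0.887, 0.659 and 0.680 TPM in SP-hold FW. All 7 seawater libraries exceeded all 6 freshwater libraries. SPLL SW replicate 3, lowest of its group in TPM for each fkbp5 transcript, was within the range of its group in TPM for klf9. In CPM it was the highest of its group for klf9, at 14.9 against 9.87 to 11.1 in the others. The log2 fold changes were 1.13 (SE 0.27, FDR 0.141) in SPLL fish and 1.49 (SE 0.23, FDR 0.0527) in SP-hold fish, neither past the edgeR threshold of 0.05. Without SPLL SW replicate 3 the change in SPLL fish was 0.99 (FDR 0.109). Averaged over both photoperiod groups klf9 rose 2.48-fold (log2 1.31, FDR 0.0188 in edgeR).

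TSC22D3 was the most abundant member and had the smallest fold change. It had 50.6, 61.8, 41.6 and 65.6 TPM in SPLL SW, against 26.5 and 29.2 TPM in SPLL FW. It had 51.3, 48.5 and 66.6 TPM in SP-hold SW, against 26.6, 29.6, 32.1 and 25.1 TPM in SP-hold FW. In TPM the seawater and freshwater libraries did not overlap, and the ratio of group means was close to equal in the photoperiod groups, 1.97 in SPLL and 1.96 in SP-hold. With TMM scaling of the libraries the ratios of mean CPM were 1.66 in SPLL and 1.58 in SP-hold, and the lowest seawater library (71.6 CPM, SP-hold SW replicate 1) lay below the highest freshwater one (78.2 CPM, SPLL FW replicate 2). The log2 fold changes were 0.73 (SE 0.20, FDR 0.176) in SPLL fish and 0.66 (SE 0.17, FDR 0.213) in SP-hold fish, and TSC22D3 did not pass in edgeR in any comparison.

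**Figure D1:**
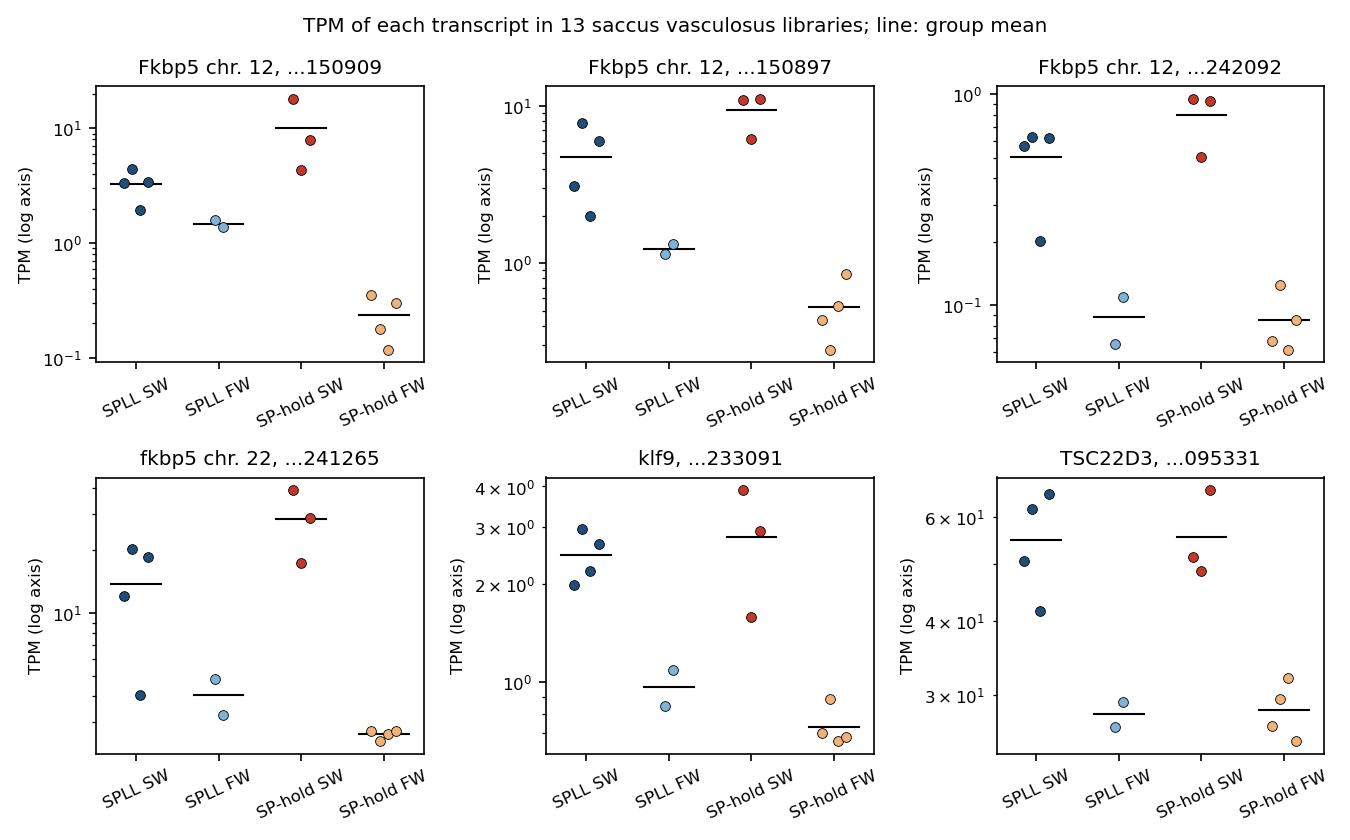
TPM of the 6 transcripts in each of the 13 libraries (1 point per library, line at the group mean, log axis), with SPLL SW, SPLL FW, SP-hold SW and SP-hold FW from left to right. The 3 SP-hold SW libraries of ENSSSAT00000150909 sit between 4.34 and 18.2 TPM, above all SP-hold FW libraries at 0.118 to 0.352 TPM, and TSC22D3 shows near-equal steps between seawater and freshwater.

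Set against all transcripts tested, 4 of the 6 members rose in SP-hold fish at an FDR of 0.05, where 0.0345% of all transcripts did. These were the fkbp5 transcripts, while klf9 and TSC22D3 did not pass. Transcripts of the chromosome 12 gene come from 1 locus, so that member counts and medians here are not counts of separate genes. The count was 0 of 6 in SPLL fish, where 0.19% rose, although all 6 log2 fold changes were above 0 and 5 had an unadjusted p under 0.05. DESeq2 called 5 of 6 in SPLL fish, and 4.93% of all transcripts in either direction. Averaged over the photoperiod groups 5 of 6 rose, all but TSC22D3, where 0.14% of all transcripts did. The median log2 fold change of the members was 1.26 in SPLL fish and 2.94 in SP-hold fish, beside 0.01 and -0.01 over all transcripts. Without overlap of CPM, 6 of 6 were higher in SP-hold SW than in SP-hold FW (7.72% of all transcripts), 6 of 6 higher in SPLL SW than in SPLL FW (10.6%), and 5 of 6 higher in all seawater than in all freshwater libraries (0.175%), with TSC22D3 as the exception. All 6 members belong to the cluster that the study formed, on these same libraries, from transcripts higher in seawater. The study describes this cluster as affected by seawater independent of photoperiod. These counts, the size of the changes and the lack of overlap are therefore no independent evidence of a response or its direction. The same limit holds for the later counts of members set against all transcripts. Leaving out SP-hold FW replicate 3 reduced the SP-hold count to 2 of 6. Leaving out SPLL SW replicate 3 brought the SPLL count to 2 of 6, with ENSSSAT00000241265 at FDR 0.0212 and ENSSSAT00000242092 at FDR 0.0402. Many more transcripts of any kind also passed in SPLL fish without that library than with all 13 libraries. The gain was thus not particular to the members. ENSSSAT00000242092 lost its SP-hold call in 8 of the 13 fits that left out a library, with an FDR of up to 0.0916.

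Salmon estimates how reads are shared among transcripts of similar sequence, and only klf9 had whole numbers of reads in all 13 libraries (within 0.001 reads). ENSSSAT00000241265 had them in 5 libraries, and the chromosome 12 transcripts and TSC22D3 in 0. The 3 chromosome 12 transcripts were therefore also summed. The sum too held fractions of reads in most libraries (for example 1531.8 reads in SP-hold SW replicate 1). It thus still depends in part on how reads were shared with other transcripts. The sum had 7.00, 12.8, 4.16 and 10.0 TPM in SPLL SW, against 2.78 and 2.81 TPM in SPLL FW. It had 30.1, 11.0 and 20.01 TPM in SP-hold SW, against 0.854, 0.584, 0.714 and 1.24 TPM in SP-hold FW. As a single feature in the same fit, the locus rose 15.5-fold in SP-hold fish (log2 3.95, SE 0.31, FDR 0.00129 in edgeR). The log2 fold change was 1.37 (SE 0.35, FDR 0.161) in SPLL fish, and the averaged change was 2.66 (SE 0.25, FDR 0.00305).

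The comparison of SPLL with SP-hold fish in freshwater asked whether the photoperiod stimulus, without seawater, went with other levels of these genes. ENSSSAT00000150909 averaged 1.48 ± 0.145 TPM in SPLL FW (SD, n = 2) and 0.237 ± 0.109 TPM in SP-hold FW (SD, n = 4). The log2 fold change was 2.81 (SE 0.44, FDR 0.0558 in edgeR), which missed the threshold narrowly and passed it when SP-hold SW replicate 1 or SPLL SW replicate 3 was left out (FDR 0.0334 at the lowest). DESeq2 called it, as it did 3.24% of all transcripts in either direction. The chromosome 12 sum averaged 2.80 ± 0.0168 TPM in SPLL FW (SD, n = 2) and 0.849 ± 0.285 TPM in SP-hold FW (SD, n = 4), with a log2 fold change of 1.73 (SE 0.32, FDR 0.129 in edgeR, 0.0190 without SP-hold FW replicate 4). The chromosome 22 fkbp5 differed by less (log2 0.84, SE 0.34, FDR 0.534), klf9 by 0.62 (SE 0.25, FDR 0.523), and TSC22D3 by 0.21 (SE 0.19, FDR 0.941). In this comparison 0 of 6 members passed in edgeR, where 0.0108% of all transcripts were higher, with 4 of 6 at an unadjusted p under 0.05. The 2 SPLL FW libraries were above all SP-hold FW libraries in CPM for 4 of 6 members, against 12% of all transcripts. The members' median log2 difference was 0.73, beside -0.02 over all transcripts.

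In seawater the fkbp5 transcripts had values on the opposite side. ENSSSAT00000150909 averaged 3.26 ± 1.00 TPM in SPLL SW (SD, n = 4) and 10.1 ± 7.18 TPM in SP-hold SW (SD, n = 3), a log2 fold change of -1.19 (SE 0.38, FDR 0.120 in edgeR). ENSSSAT00000241265 averaged 13.8 ± 7.44 TPM in SPLL SW (SD, n = 4) and 28.3 ± 10.8 TPM in SP-hold SW (SD, n = 3), a log2 fold change of -0.86 (SE 0.31, FDR 0.151). klf9 averaged 2.45 ± 0.441 TPM in SPLL SW (SD, n = 4) and 2.80 ± 1.16 TPM in SP-hold SW (SD, n = 3), and TSC22D3 averaged 54.9 ± 10.9 TPM in SPLL SW (SD, n = 4) and 55.5 ± 9.74 TPM in SP-hold SW (SD, n = 3). These small TPM differences turned round with TMM scaling, with log2 fold changes of 0.27 (SE 0.23, FDR 0.634) for klf9 and 0.28 (SE 0.17, FDR 0.443) for TSC22D3. The klf9 value was 0.13 without SPLL SW replicate 3. Of the 6 members 0 were lower in SPLL SW at an FDR of 0.05 in edgeR, in a comparison in which 1.63% of all transcripts were lower, while 2 had an unadjusted p under 0.05. DESeq2 called 1 of 6, near its share of 11.8% of all transcripts in either direction. CPM in SPLL SW lay below SP-hold SW without overlap for 3 of 6 members, which held for 12.5% of all transcripts. In TPM these groups overlapped for all 6 members. For ENSSSAT00000150909 the highest SPLL SW library had 4.40 TPM and the lowest SP-hold SW library 4.34 TPM.

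The order of group means was thus the same for all 4 fkbp5 transcripts in TPM and CPM, with SP-hold FW lowest, then SPLL FW, SPLL SW and SP-hold SW. Neighbours in this order did not differ at an FDR of 0.05 in edgeR, and the ends of the order did. For klf9 the order was the same in TPM, but in CPM SPLL SW (11.6 ± 2.28, SD, n = 4) was above SP-hold SW (9.59 ± 1.78, SD, n = 3). For TSC22D3 the freshwater groups were near each other, at 27.9 ± 1.97 TPM in SPLL FW (SD, n = 2) and 28.3 ± 3.12 TPM in SP-hold FW (SD, n = 4). The seawater comparisons in the photoperiod groups share no library, and their difference was tested as an interaction. Photoperiod history and the change of light at transfer, which only SP-hold fish had, cannot be told apart in it. ENSSSAT00000150909 had a smaller response in SPLL than in SP-hold fish, with an interaction of -4.00 on the log2 scale (SE 0.58, FDR 0.0292 in edgeR), the same direction as 0.0798% of all transcripts that passed. This was 1 of 6 members, and leaving out SP-hold FW replicate 2, SPLL SW replicate 1 or SPLL SW replicate 4 ended the call, at an FDR of at most 0.0615. The interaction was -2.06 (SE 0.64, FDR 0.245) for ENSSSAT00000150897 and -1.70 (SE 0.46, FDR 0.192) for ENSSSAT00000241265. It was -0.61 (SE 0.55) for ENSSSAT00000242092, -0.35 (SE 0.34) for klf9 and 0.07 (SE 0.25) for TSC22D3, with an FDR of 0.797 or more for each. The chromosome 12 sum had an interaction of -2.59 (SE 0.43, FDR 0.0493), which did not pass in 9 of 13 fits that left out a library, with an FDR of up to 0.113, nor under 4 other settings. In the test over all 4 groups ENSSSAT00000150909 alone of the members passed the FDR of 0.01 (FDR 0.00982), as did 0.0625% of all transcripts (29). Leaving out a library ended this call in 10 of 13 cases. The study's own edgeR test over these groups, at the same FDR, selected all 6 members and many more transcripts than passed here. The reason for this difference was not tested. DESeq2 called 3 of 6 members for the interaction (4.51% of all transcripts in either direction) and 6 of 6 over the 4 groups (7.43%).

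**Figure D2:**
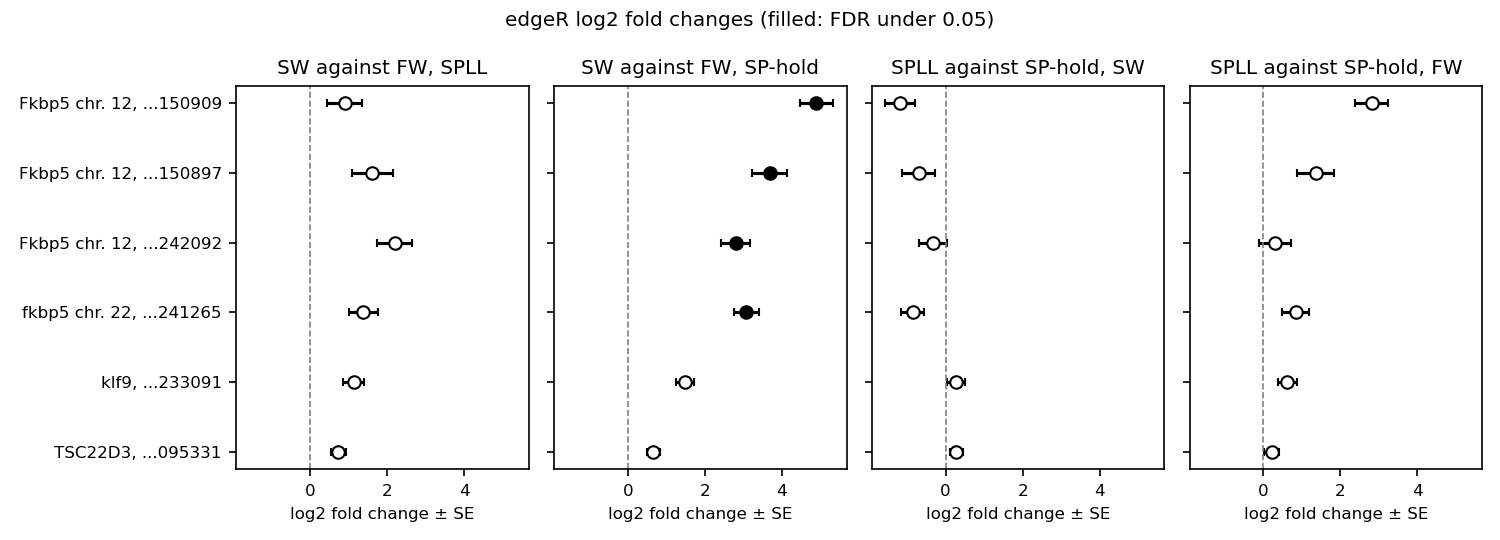
edgeR log2 fold change (point, with bars of 1 SE) of each transcript in 4 comparisons, from left to right seawater against freshwater in SPLL and in SP-hold, then SPLL against SP-hold in seawater and in freshwater, with filled points at an FDR under 0.05. The 4 fkbp5 transcripts are filled in SP-hold only, from 2.80 to 4.90, and ENSSSAT00000150909 lies at 2.81 in freshwater and at -1.19 in seawater.

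The make-up of the fkbp5 signal was compared between groups as shares of TPM. ENSSSAT00000150909 held 47.4%, 34.3%, 47.0% and 33.7% in SPLL SW, against 56.8% and 49.1% in SPLL FW. It held 60.5%, 39.5% and 39.7% of the chromosome 12 TPM in SP-hold SW, against 41.2%, 30.3%, 16.5% and 24.4% in SP-hold FW. SPLL FW was above SP-hold FW without overlap, by 24.9 points (p = 0.0667 in a 2-sided exact permutation test, the smallest these 6 libraries can give, adjusted 0.178 over 4 comparisons). The difference in SP-hold fish was 18.5 points (exact permutation p = 0.114, adjusted 0.178), and SP-hold SW replicate 1 set much of it, since it was 11.5 points without that library.

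The chromosome 22 gene held 63.2%, 61.4%, 49.2% and 65.1% in SPLL SW, against 63.3% and 53.5% in SPLL FW. It held 56.5%, 61.3% and 58.8% of the TPM of both fkbp5 genes in SP-hold SW, against 76.0%, 80.6%, 78.6% and 68.6% in SP-hold FW. SP-hold FW stood above every library of the other groups, and the means of those groups were 59.7% in SPLL SW, 58.4% in SPLL FW and 58.9% in SP-hold SW, beside 76.0% in SP-hold FW. The difference was -17.1 points in SP-hold fish (exact permutation p = 0.0571, adjusted 0.133) and -17.6 points between SPLL FW and SP-hold FW (exact permutation p = 0.0667, again the smallest possible, adjusted 0.133). Neither passed 0.05. Seawater and freshwater differed by 1.32 points in SPLL fish (exact permutation p = 0.933).

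**Figure D3:**
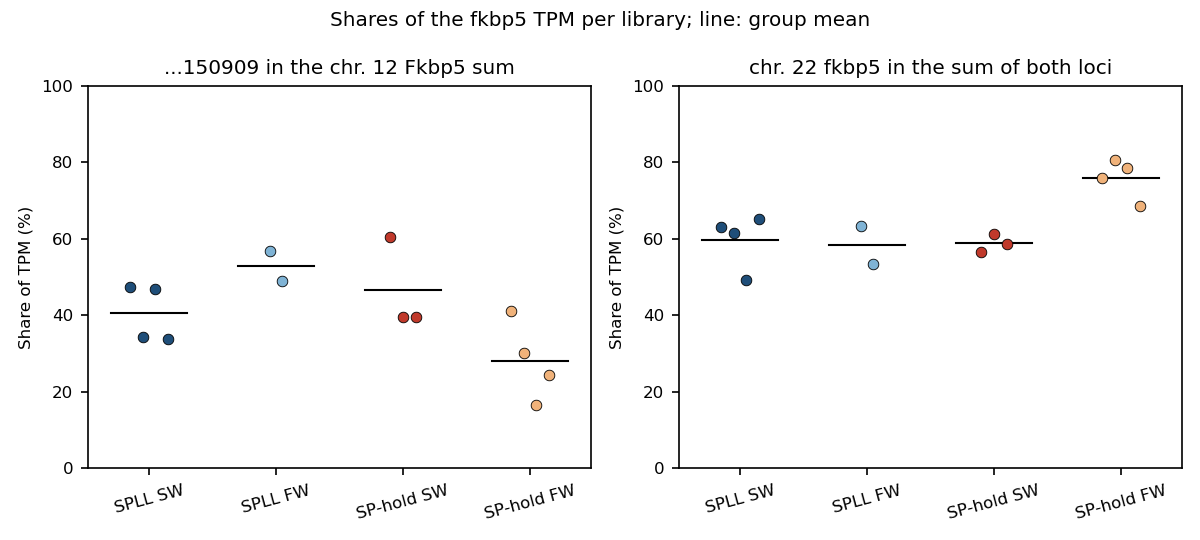
Share of TPM in percent per library (1 point each, line at the group mean) for ENSSSAT00000150909 in the chromosome 12 sum (left) and for the chromosome 22 gene in the sum of both fkbp5 genes (right). On the right the 4 SP-hold FW libraries, at 68.6% to 80.6%, lie above the other 9, at 49.2% to 65.1%.

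Across the 13 libraries the 4 genes moved together to differing degrees, described here as correlations of log2(CPM + 0.5) that share depth and the seawater groups. The chromosome 12 sum and the chromosome 22 gene had r = 0.965, the chromosome 12 sum and klf9 r = 0.895, and klf9 and TSC22D3 r = 0.857. The lowest was the pair of chromosome 22 fkbp5 and TSC22D3 at r = 0.663. Outside the members, PLAT, which encodes tissue plasminogen activator, was the transcript most like both fkbp5 genes, with r = 0.981 to the chromosome 12 sum and 0.979 to the chromosome 22 gene. PLAT had a log2 fold change of 0.48 in SPLL fish (FDR 0.410 in edgeR) and 1.79 in SP-hold fish (FDR 0.00265). tefb, a PAR bZIP factor of clock output, followed for the chromosome 12 sum (r = 0.959) and was also near the top for the chromosome 22 gene (r = 0.951), with log2 fold changes of 1.19 in SPLL fish (FDR 0.112) and 1.92 in SP-hold fish (FDR 0.00995). ldlra, the low density lipoprotein receptor gene (r = 0.952), and lpin1a, a lipin gene of fat metabolism (r = 0.930), completed the named transcripts for the chromosome 22 gene. For klf9 the named one among its 5 closest was cdkn1ba, which encodes a cell cycle inhibitor (r = 0.907), with log2 fold changes of 0.71 in SPLL fish (FDR 0.141) and 0.63 in SP-hold fish (FDR 0.199). The 5 transcripts closest to TSC22D3 had no name in the tables, with ENSSSAT00000071446 at r = 0.937 and ENSSSAT00000076262 at r = 0.927. PLAT, tefb, ldlra, lpin1a and cdkn1ba are all among the transcripts the study selected on these libraries.

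Other known glucocorticoid targets were looked up by symbol, and 5 had a name, all of which were tested. Of these, 1 of 5 rose averaged over photoperiods, where 0.14% of all transcripts did. Within SP-hold or SPLL fish 0 of 5 passed. At an unadjusted p under 0.05 in edgeR, 3 of 5 were higher in SP-hold SW and 2 of 5 in SPLL SW. foxo1a, a forkhead factor of fasting and muscle wasting, averaged 3.35 TPM in SPLL SW against 1.86 TPM in SPLL FW, and 4.76 TPM in SP-hold SW against 2.18 TPM in SP-hold FW. It rose by a log2 of 0.67 on average (SE 0.11, FDR 0.0375 in edgeR), with 0.59 in SPLL fish and 0.75 in SP-hold fish. per1b, a clock repressor, averaged 0.653 TPM in SPLL SW against 0.858 TPM in SPLL FW, and 3.71 TPM in SP-hold SW against 1.27 TPM in SP-hold FW. Between photoperiod groups in seawater per1b was lower in SPLL fish (log2 -2.36, SE 0.41, FDR 0.0206), as was BCL6B, a transcriptional repressor (log2 -1.32, SE 0.22, FDR 0.0180). In that comparison 1.63% of all transcripts were lower. cited2, a CBP and p300 binding coregulator, was higher there with TMM scaling (log2 0.36, SE 0.08, FDR 0.0435), in a comparison in which 1.42% of all transcripts were higher, but not in TPM, at 68.2 TPM in SPLL SW and 73.8 TPM in SP-hold SW. glula, which encodes glutamine synthetase, passed nowhere, with log2 fold changes of -0.19 in SPLL fish (FDR 0.866) and -0.28 in SP-hold fish (FDR 0.648). per1b, BCL6B and foxo1a were selected by the study on these libraries. The receptors of glucocorticoids and the enzymes of cortisol metabolism had no named transcript in the tables used here and were not analysed here. This is a limit of the names and not of expression, since the study states that its data hold receptors for cortisol.

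**Figure D4:**
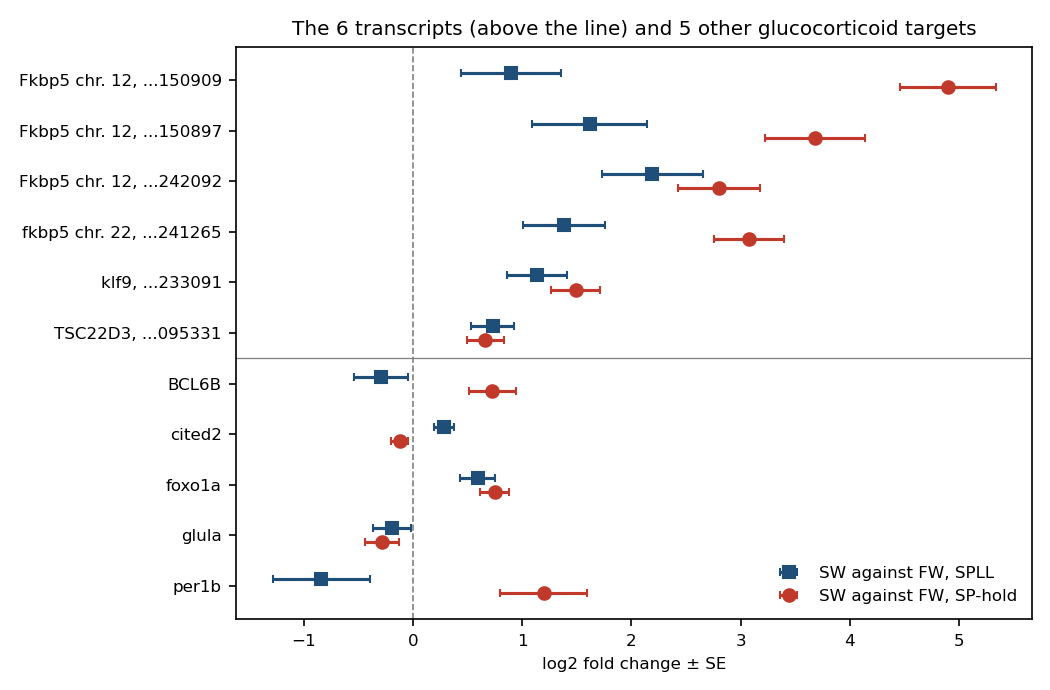
edgeR log2 fold change (bars of 1 SE) of seawater against freshwater in SPLL (squares) and SP-hold fish (circles) for the 6 transcripts, above the line, and the 5 other named glucocorticoid targets, below it. The 4 fkbp5 transcripts reach 2.80 to 4.90 in SP-hold fish, while per1b lies at -0.84 in SPLL and at 1.196 in SP-hold fish.

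The chaperones that hold the receptor were represented by 9 named transcripts, of which 0 passed for seawater in SP-hold fish, in SPLL fish or averaged. In seawater 3 of 9 were higher in SPLL than in SP-hold fish, where 1.42% of all transcripts were. These were TEBP (log2 0.79, SE 0.10, FDR 0.00880 in edgeR) and ptges3b (log2 0.58, SE 0.11, FDR 0.0256), genes of the p23 co-chaperone, and the hsp90ab1 transcript ENSSSAT00000056740 (log2 1.23, SE 0.21, FDR 0.0217), of which TEBP and this HSP90 transcript are among those selected by the study. The other hsp90ab1 transcript, ENSSSAT00000057324, was more abundant, at 529 TPM in SPLL SW and 759 TPM in SP-hold SW, with a log2 fold change of -0.27 (FDR 0.194) that did not pass. Among 6 transcripts of other FKBP immunophilins, a family of prolyl isomerases, 0 passed for seawater and all 6 log2 fold changes averaged over photoperiods were below 0 with TMM scaling, at a median of -0.25. In TPM 3 of 6 were higher and 3 of 6 lower in seawater within SPLL and likewise within SP-hold fish, and 1 of 6 passed as lower in edgeR without SPLL SW replicate 3. FKBP2 (log2 0.64, FDR 0.0304) and fkbp11 (log2 0.81, FDR 0.0374), 2 of the 6, were higher in SPLL SW than in SP-hold SW, as were 1.42% of all transcripts. tieg3, the other named Krüppel-like factor, rose in SPLL fish (log2 1.21, SE 0.20, FDR 0.0418), where 0.19% of all transcripts rose, and had 0.13 in SP-hold fish (FDR 0.958). It was also higher in SPLL SW than in SP-hold SW (log2 0.73, FDR 0.0478), a call lost without SPLL SW replicate 3. Both tieg3 and fkbp11 are among the transcripts the study selected on these libraries, so that their calls are not independent of that selection.

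In whole tissue a change in the number of cells of a type and a change in RNA per cell cannot be told apart. In TPM, markers of other cells moved with both seawater comparisons. Over all transcripts tested the median log2 TPM ratio of seawater to freshwater was 0.27 in SPLL and 0.32 in SP-hold fish. The marker shares were not scaled by TMM, and a rise of about that size is not set apart from this shift. The 2 transcripts listed as lymphocyte markers (cd74a and dicp2.1) held 0.101% to 0.170% of TPM in SP-hold SW, against 0.213% to 0.308% in SP-hold FW. Most of this was dicp2.1, at a mean of 2155 TPM over the libraries against 144 TPM for cd74a, and their cell type was not checked here. The 2 apoeb transcripts of macrophages and microglia held 0.301% to 0.317% in SP-hold SW, against 0.164% to 0.280% in SP-hold FW, with overlap in SPLL fish for both lists. acta1b of muscle held 0.00908% to 0.0139% in SPLL SW, against 0.0157% to 0.0180% in SPLL FW, and, on the opposite side, 0.0219% to 0.0346% in SP-hold SW, against 0.0124% to 0.0171% in SP-hold FW. egfl7 of endothelium, a single transcript, had 2.83 to 6.96 TPM over the libraries. It did not overlap in SPLL fish, at 0.000391% to 0.000696% in SPLL SW, against 0.000283% to 0.000296% in SPLL FW, while it overlapped in SP-hold fish. gh1, the growth hormone gene of the pituitary, held 0.0411% of TPM in SPLL SW replicate 2, 0.0122% in SPLL SW replicate 3 and 0.0103% in SPLL FW replicate 2, against at most 0.0019% in any SP-hold library. Erythrocyte transcripts held 2.55% to 7.11% in SPLL SW, against 1.62% to 3.36% in SPLL FW, and 1.47% to 2.33% in SP-hold SW, against 2.30% to 3.15% in SP-hold FW. Coronet markers overlapped between seawater and freshwater in both photoperiod groups, at 7.54% to 11.0% in SPLL SW against 9.36% to 11.5% in SPLL FW, and at 6.31% to 9.05% in SP-hold SW against 6.12% to 9.07% in SP-hold FW. Their part in the changes of the 6 transcripts was not tested.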

How the data were processed

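The authors trimmed single-end reads of stranded mRNA libraries with Cutadapt and made the deposited estimated counts and TPM values with Salmon (1.1.0) on the Ssal_v3.1 transcriptome, with GC correction. The authors left out libraries with few reads. Fish came from duplicate tanks and libraries could not be assigned to tanks, so that p-values treat libraries of a group as independent. Groups were taken from the sample labels. Estimated counts were rounded, and the 46383 transcripts whose median reached 0.77 CPM (reads scaled to library size) were tested in edgeR 4.0.16 (quasi-likelihood, TMM, 4 group means, 9 residual degrees of freedom, R 4.3.3), with Benjamini-Hochberg FDR over all of them. The thresholds were 0.05 for contrasts and 0.01 for the 4-group test. SE is the log2 fold change over the square root of F, and SPLL FW, with 2 libraries, borrows its spread from the others. Shares of TPM were compared by 2-sided exact permutation tests. DESeq2 (1.42.0), other normalization and filters, a replicate block and leaving out each library were alternatives. The fits were tested on simulated counts. Sequences were not analysed here. Members and lists were chosen with earlier results of these data known. Named transcripts are the members, all named glucocorticoid targets, members of the other lists past a test (up to 4 each) and the 5 transcripts most correlated with each gene.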

Additional observations from a re-analysis of the deposited data

Results flagged for a closer look

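Of 28 group values examined for a library far from its group, 3 had one. How many chance alone would give was not established, and the values are not independent, since the chromosome 12 sum holds 3 of the transcripts. ENSSSAT00000242092 had 0.201 TPM in SPLL SW replicate 3, against 0.565 to 0.624 TPM in the other SPLL SW libraries. klf9 (ENSSSAT00000233091) had 0.887 TPM in SP-hold FW replicate 2, against 0.659 to 0.698 TPM in the other libraries of the group. In CPM this library (3.75) lay within the range of the others (2.88 to 3.96). The chromosome 12 Fkbp5 sum had 5.01 CPM in SP-hold FW replicate 4, against 2.24 to 2.56 CPM in the others.

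The seawater response differed between photoperiod groups, by a test of the interaction in edgeR, for ENSSSAT00000150909 (-4.00 on the log2 scale, SPLL minus SP-hold, FDR 0.0292) and for the chromosome 12 sum (-2.59, FDR 0.0493). Only SP-hold fish also had a change of light at transfer, which cannot be told apart from photoperiod history here. The call for the sum was lost without a filter on low counts (FDR 0.110), with filterByExpr (0.0849), with the replicate block (0.176) and with the new quasi-likelihood fit (0.0610), and in 9 of 13 fits that left out a library.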

How the results depend on the processing

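All 6 members kept their direction in both seawater comparisons and their average under every alternative and every library left out. Calls depended on the tool. DESeq2 called 6 of 6 members over the 4 groups, 5 in SPLL fish, 1 each between SPLL and SP-hold in freshwater and in seawater, and 3 for the interaction, in fits that called between 3.24% and 11.8% of all transcripts. The new quasi-likelihood fit of edgeR called 1 between SPLL and SP-hold in seawater, where it called 2071 of all transcripts in either direction. It was chosen after seeing the data, since the planned legacy fit is the one reported. Without a filter on low counts 0 passed over the 4 groups, 3 averaged over photoperiods and 0 for the interaction, and with filterByExpr 0 passed over the 4 groups. Deviations of same-numbered libraries correlated at r from -0.04 to 0.12 (16 pairs), and those of other-numbered libraries at -0.11 to 0.08 (46 pairs). With so few libraries in a group this cannot show whether libraries shared a tank or batch, and the sample labels state no pairing. With the replicate block, 0 members passed over the 4 groups, 1 in SP-hold fish, 0 averaged and 0 for the interaction. Few transcripts of any kind passed in that fit, at 0, 4, 4 and 3 of all transcripts in the same order. The TSC22D3 interaction was -0.044 with the block.

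Leaving out each library in turn gave 0 to 1 members over the 4 groups, 2 to 5 in SP-hold fish, 0 to 2 in SPLL fish, 4 to 6 averaged, 0 to 1 in freshwater between photoperiods and 0 to 1 for the interaction. Leaving out single libraries of any group turned the TSC22D3 interaction (-0.12 to 0.23) and ENSSSAT00000242092 in freshwater (-0.24 to 0.68). It also turned 3 uncalled share differences, of ENSSSAT00000150909 between SPLL and SP-hold in seawater (-9.46 to 1.02 points) and of chromosome 22 fkbp5 for seawater in SPLL (-3.58 to 6.22) and for photoperiod in seawater (-0.93 to 4.38). As shares of reads the last 2 were -0.55 and -1.09. By rank correlation 9 of the 20 most similar transcripts were the same. The cause of these changes was not tested. Low levels, 7.7 to 54.4 reads for ENSSSAT00000150909 and ENSSSAT00000150897 in SP-hold FW and, for ENSSSAT00000242092, 8.5 to 23.7 reads in SP-hold FW and 13.0 to 25.8 in SPLL FW, limit their freshwater values.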
